A study of Mus musculus with 12 samples.

Results

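The genes described here are 9 genes of hepatic glucose production and glucose sensing, namely Pck1, Fbp1, G6pc, Slc37a4, Slc2a2, Gckr, Pdk4, Irs2 and Ppargc1a. They were chosen by name, and every probe set that the platform annotation assigns to them was taken. A probe set is a group of short oligonucleotides on the array whose readings are combined into 1 signal. The 9 genes are covered by 15 of the 45101 probe sets of the array, with 3 for Pck1, 5 for Ppargc1a and 1 for each of the others, and they are 9 of the 18194 genes that have a probe set of their own. All 9 genes and all 15 probe sets passed the filter on low signals, which left 12264 genes and 25412 probe sets for testing.

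Liver RNA came from adult female mice of the B6.129 background that were either wild type (WT, Esr1+/+) or αERKO (Esr1-/-), that is, without functional estrogen receptor α in any tissue. Mice of each genotype received the NIH-31 normal diet or a research diet with 60 kcal% fat for 2 weeks, which gave 4 groups of 3 samples, each on its own Affymetrix 3' expression array. Whether the 3 samples of a group are separate animals is not in the labels. The p-values therefore measure the spread between samples, which may in part be technical. Precision is limited by the number of arrays, with a median standard error of 0.20 on the log2 scale for a difference between 2 groups.

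The liver makes glucose from lactate, amino acids and glycerol during fasting and stops doing so after a meal. Glucagon, acting through cyclic AMP, and the coactivator encoded by Ppargc1a raise transcription of the rate-setting enzymes, whereas insulin, acting through the adaptor encoded by Irs2, lowers it. Glucose leaves or enters the hepatocyte through the transporter encoded by Slc2a2, and the protein encoded by Gckr restrains glucose phosphorylation in the hepatocyte when little fructose or glucose is present.

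Signals are given on the linear MAS5 scale, and differences are on the scale of log2(signal + 16), as αERKO minus WT or high-fat minus normal diet, with the standard error (SE) of the limma model. The 3 signals of a group are given in the order of the replicate numbers, which name the arrays (WT normal 1). A gene counts as changed when its Benjamini-Hochberg adjusted p over all genes tested was under 0.05. Esr1 served as a check of the genotype labels. Its mean signal was 2777 ± 1030 (SD, n = 3) in WT on normal diet and 622.8 ± 51.2 in αERKO. With the high-fat diet it was 3343 ± 291 and 802.1 ± 121, with every αERKO array below every WT array. Where this probe set lies relative to the disrupted part of Esr1 is not given in the sources used here. All 8 measured hepatocyte markers were above the array median on all 12 arrays. The 11 measured pancreatic acinar markers were all above the array median on 4 arrays, namely WT normal 2, WT high-fat 2, WT high-fat 3 and αERKO normal 1. All 12 skeletal muscle markers were above it on αERKO normal 1, and 10 of 12 on αERKO high-fat 2. The summed acinar signal ranged from 1011 to 170542 in WT normal, 1441 to 69969 in WT high-fat, 1020 to 138226 in αERKO normal and 1357 to 1434 in αERKO high-fat. The summed muscle signal ranged from 520 to 1232, 656 to 677, 364 to 27398 and 352 to 8285 in the same order. No marker of any list was at 0. Because these are bulk samples, fewer cells of a type and less RNA per cell cannot be told apart.

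G6pc and Slc2a2 were the members whose brightest probe set passed the test. G6pc was lower in αERKO than in WT liver over both diets, and Slc2a2 was higher on high-fat than on normal diet over both genotypes. The other 7 genes did not pass in any of the 7 comparisons made. Between 2 single groups, 0 of 9 members passed in each of the 4 comparisons, against a background of 0.0734% of all genes for diet in WT, 0.481% for diet in αERKO, 1.22% for genotype on normal diet and 1.98% for genotype on high-fat diet. For genotype over both diets, 1 of 9 members passed, where 4.32% of all genes did. For diet over both genotypes, 1 of 9 passed, where 0.946% of all genes did.

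**Figure D1:**
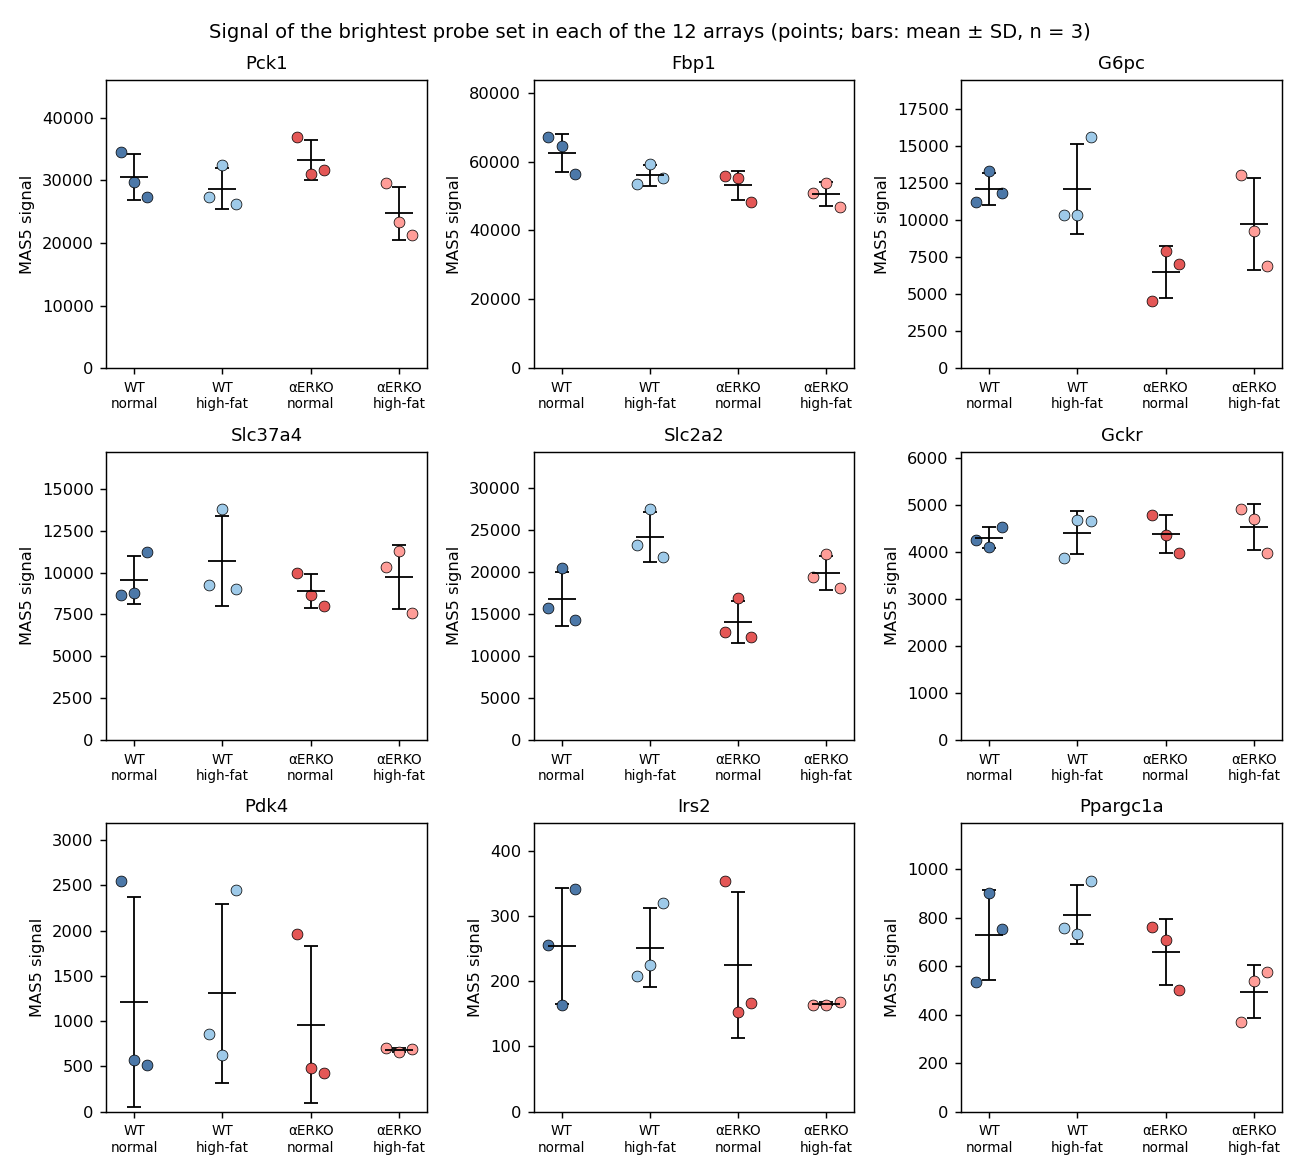
MAS5 signal of the brightest probe set of each of the 9 genes (y axes from 0, a scale for each gene) in the 4 groups of 3 arrays; points are arrays, bars the mean ± SD. Slc2a2 is higher on high-fat diet in both genotypes, G6pc is lowest in αERKO on normal diet, and Pdk4 has 3 high arrays in 3 different groups.

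Pck1 encodes the cytosolic phosphoenolpyruvate carboxykinase, which turns oxaloacetate into phosphoenolpyruvate. Its brightest probe set, 1423439_at, read 34438, 29772 and 27332 in WT on normal diet and 27346, 32429 and 26232 in WT on high-fat diet. In αERKO it read 36844, 30988 and 31683 on normal diet against 29501, 23386 and 21225 on high-fat diet. The αERKO high-fat arrays all lay below the αERKO normal arrays, while the WT groups overlapped. The diet difference in αERKO was -0.43 ± 0.13 (adjusted p = 0.209) and that in WT was -0.09 ± 0.13 (adjusted p = 0.904), and the difference between them was -0.35 with a 95% interval from -0.74 to 0.05. None of these passed the test.

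The Pck1 promoter holds a sequence known as a cyclic AMP response element, so the 250 bases before the transcription start are shown for Pck1 and, further on, for the members that passed the test. Sequences are from RefSeq on build GRCm38.p6, 5′ to 3′ on the strand of the gene. All 9 members were matched to 11 such windows, since Slc37a4 has 3 starts. Capitals mark matches to 6 motifs searched on both strands: the cAMP response element core TNACGTNA, the insulin response core TGTTTTG, the HNF1 core GTTAAT, the palindromic estrogen response element, its repeat unit GGTCA, which lies within it, and the E-box CACGTG. The Pck1 window is chr2:173152823-173153072 on the plus strand.
Pck1: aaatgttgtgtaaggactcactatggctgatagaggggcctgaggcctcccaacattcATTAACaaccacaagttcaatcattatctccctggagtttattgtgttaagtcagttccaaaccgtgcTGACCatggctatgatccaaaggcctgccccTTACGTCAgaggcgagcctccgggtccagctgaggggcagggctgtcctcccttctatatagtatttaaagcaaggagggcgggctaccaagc
The match TTACGTCA lay 93 to 86 bases before the start of Pck1. The core TNACGTNA was present in 3.83% of all 32851 mouse windows of this length, and in 2 members, Pck1 and G6pc. The HNF1 core, in 6.43% of all windows, was found in Pck1, G6pc and Gckr. The insulin response core, in 5.56% of windows, was found in G6pc, Gckr and Irs2, and the E-box, in 6.02%, in Irs2. The estrogen response repeat unit was found in 5 members (Pck1, G6pc, Slc2a2, Pdk4 and Slc37a4) and in 35.2% of all windows. The full palindrome was found in 0 members and in 0.0639% of windows. A match describes letters and does not show that a factor binds.

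The 3 Pck1 probe sets did not move alike. Probe set 1439617_s_at read 8843, 7810 and 8681 in WT on normal diet, 5978, 7848 and 7140 in WT on high-fat diet, 10413, 8123 and 9208 in αERKO on normal diet and 8300, 6506 and 4271 in αERKO on high-fat diet. Its genotype difference over both diets was -0.03 ± 0.13 (adjusted p = 0.939), close to the -0.05 ± 0.09 (adjusted p = 0.816) of the brightest probe set in the same fit. The third probe set, 1455209_at, was dim. It read 110, 145 and 111 in WT on normal diet and 195, 186 and 129 in WT on high-fat diet. It read 49, 67 and 80 in αERKO on normal diet and 24, 65 and 61 in αERKO on high-fat diet. Every αERKO array was below every WT array, a pattern in the lower direction that 1.29% of all probe sets showed. This probe set was above the array median on 5 arrays, all of them WT, so it passed the filter only through the group in which it is high, and its values are given as a description. In the fit over all probe sets the difference of 1455209_at was -1.16 ± 0.24 over both diets (adjusted p = 0.0169, where 3.21% of probe sets passed). Within the high-fat diet the difference was -1.55 ± 0.34 (adjusted p = 0.0413, where 1.29% passed). On normal diet the difference was -0.78 ± 0.34 (adjusted p = 0.427). The position of its oligonucleotides in the gene was not used here. Over 22 alternatives the difference of 1455209_at ranged from -1.38 to -0.79 over both diets and from -1.85 to -1.05 on high-fat diet.

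**Figure D2:**
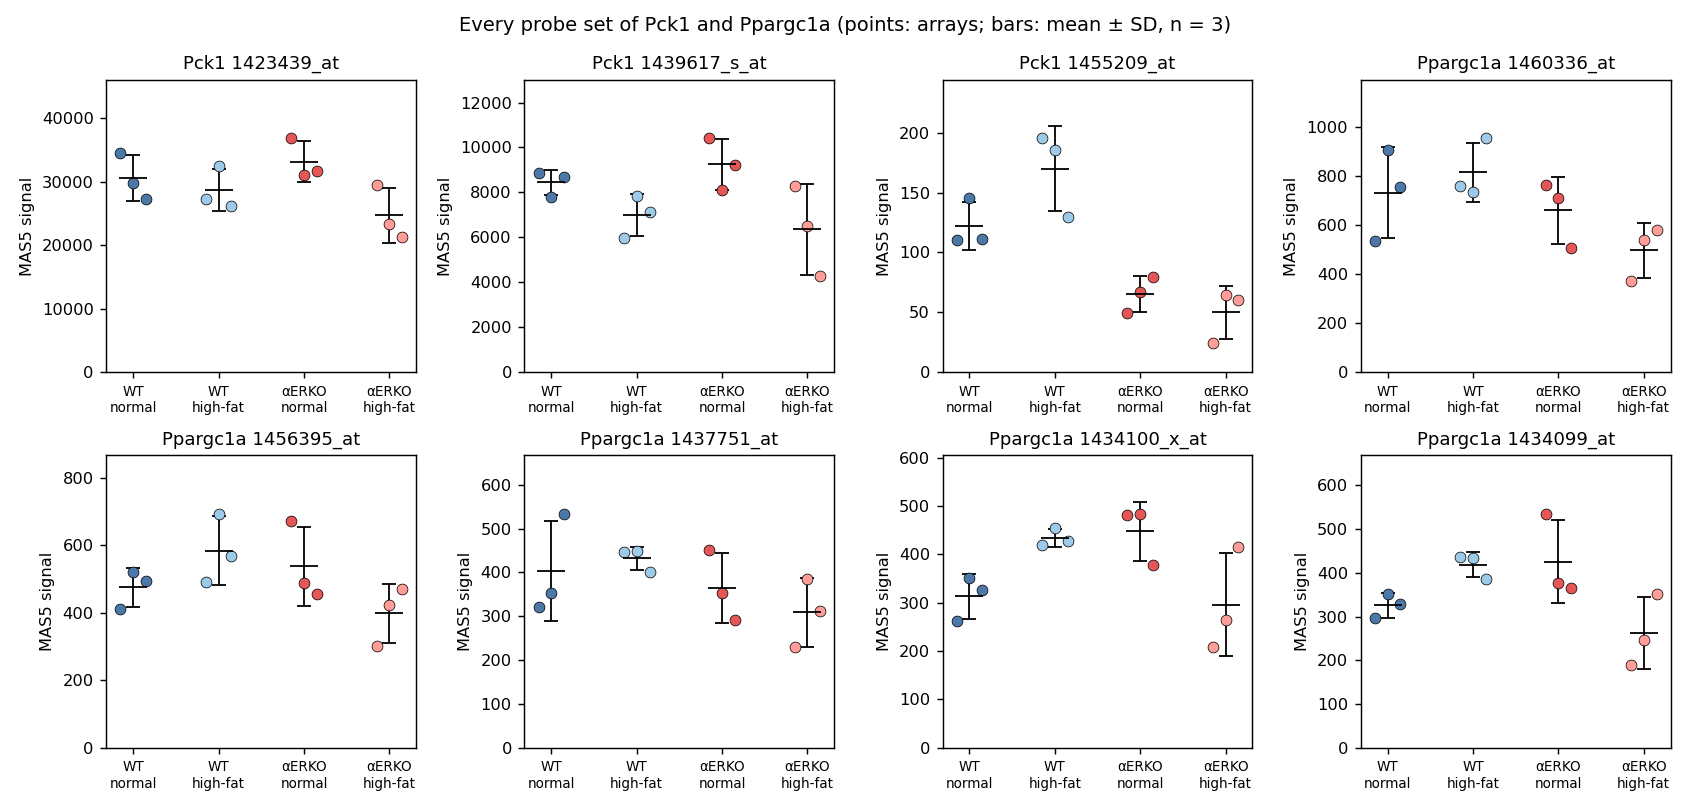
MAS5 signal (y axes from 0, a scale for each probe set) of the 3 probe sets of Pck1 and the 5 of Ppargc1a in the 4 groups of 3 arrays; points are arrays, bars the mean ± SD. The dim Pck1 probe set 1455209_at reads 24 to 80 in αERKO and 110 to 195 in WT. It passed the filter only through WT arrays. The brighter Pck1 probe sets overlap between the genotypes.

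Fbp1 encodes fructose-1,6-bisphosphatase, which catalyses the next regulated step of gluconeogenesis. Fbp1 read 67045, 64410 and 56462 in WT on normal diet and 53380, 59273 and 55286 in WT on high-fat diet. The αERKO arrays read 55708, 55364 and 48230 with the normal and 50851, 53791 and 46927 with the high-fat diet. On normal diet all αERKO arrays were below all WT arrays; the difference was -0.24 ± 0.09 (adjusted p = 0.291). Over both diets it was -0.19 ± 0.06, a ratio of 0.875, and the genotypes overlapped (adjusted p = 0.0998). With array quality weights this value passed (adjusted p = 0.0495), and it did not pass in the other 25 alternatives. Over the 26 alternatives the difference ranged from -0.23 to -0.04, with an adjusted p of up to 0.813. The difference on normal diet ranged from -0.31 to -0.03 over 27 alternatives, with an adjusted p of up to 0.891. The mean log2 signal of the hepatocyte markers also differed between groups, from 15.8 to 15.9 in WT on normal diet, 15.5 to 15.7 in WT on high-fat and αERKO on normal diet, and 15.3 to 15.6 in αERKO on high-fat diet. Its part in the Fbp1 values was not tested.

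G6pc encodes the catalytic subunit of glucose-6-phosphatase, which releases free glucose in the last step shared by gluconeogenesis and glycogen breakdown. Its promoter window, chr11:101367466-101367715 on the plus strand, held matches to 4 of the 6 motifs.
G6pc: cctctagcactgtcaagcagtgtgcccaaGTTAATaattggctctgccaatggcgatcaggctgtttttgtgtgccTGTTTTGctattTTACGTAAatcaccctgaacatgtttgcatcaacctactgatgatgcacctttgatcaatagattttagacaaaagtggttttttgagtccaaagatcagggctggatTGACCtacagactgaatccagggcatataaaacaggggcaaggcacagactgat
The core match TTACGTAA lay 162 to 155 bases before the start, the insulin response core 174 to 168 bases and the HNF1 core 221 to 216 bases before it. The repeat unit GGTCA was read on the minus strand, 54 to 50 bases before the start. G6pc read 11196, 13317 and 11800 in WT on normal diet and 10321, 10354 and 15579 in WT on high-fat diet. Its αERKO signals were 4542, 7898 and 7057 without and 13037, 9248 and 6915 with the high-fat diet. On normal diet every αERKO array was below every WT array, whereas on high-fat diet the αERKO arrays spanned the range from below to within WT. Over both diets G6pc fell in αERKO, with a difference of -0.63 ± 0.17 and a ratio of 0.646 (95% interval of the difference from -0.99 to -0.27, adjusted p = 0.047). The genotype difference was -0.93 ± 0.23 on normal diet (adjusted p = 0.0855). Within the high-fat diet it was -0.33 ± 0.23 (adjusted p = 0.55), and 0.60 ± 0.33 separated these (adjusted p = 0.828). The diet difference was 0.57 ± 0.23 in αERKO (adjusted p = 0.397) and -0.03 ± 0.23 in WT (adjusted p = 0.986).

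The G6pc call lay close to the threshold. Its direction held in all 26 alternatives, between -0.75 and -0.38, and the call was lost in 19 of them, with adjusted p from 0.0205 to 0.357. Leaving out any 1 array ended it except αERKO normal 2 (adjusted p = 0.041) and αERKO high-fat 1 (adjusted p = 0.0205); without WT normal 1, whose loss moved it least past the threshold among the WT arrays, adjusted p was 0.0646, and the largest was 0.101, without αERKO high-fat 2. αERKO normal 1, the array with the lowest G6pc signal, also held the acinar and muscle transcripts, and without it the difference was -0.51 (adjusted p = 0.0769). Without the 4 arrays with acinar transcripts the difference was -0.38 ± 0.18 (adjusted p = 0.357), and without the 2 with muscle transcripts -0.51 ± 0.17 (adjusted p = 0.147). The part of these transcripts in the result was not tested further.

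Slc37a4 encodes the transporter that carries glucose-6-phosphate into the endoplasmic reticulum, where glucose-6-phosphatase works. Slc37a4 read 8640, 8793 and 11236 in WT on normal diet and 9267, 13782 and 9033 in WT on high-fat diet. In αERKO it read 9993, 8659 and 8015 on normal diet against 10330, 11284 and 7591 on high-fat diet. All 4 groups overlapped. The differences between 2 groups lay between -0.13 and 0.14 with an SE of 0.18, and the 95% interval for genotype over both diets ran from -0.38 to 0.16. It did not reach the G6pc estimate of -0.63, but it overlapped the interval of G6pc. The 2 genes were not tested against each other.

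Slc2a2 encodes GLUT2, the low-affinity glucose transporter of the hepatocyte membrane. Its promoter window, chr3:28697653-28697902 on the plus strand, held a match to the repeat unit GGTCA, 20 to 16 bases before the start, and to no other motif searched.
Slc2a2: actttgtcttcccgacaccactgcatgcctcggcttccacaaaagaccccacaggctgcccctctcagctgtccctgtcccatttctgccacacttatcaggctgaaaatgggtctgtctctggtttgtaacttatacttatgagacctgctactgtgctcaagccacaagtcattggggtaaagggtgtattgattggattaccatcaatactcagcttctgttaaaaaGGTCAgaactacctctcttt
Slc2a2 read 15781, 20459 and 14286 in WT on normal diet and 23173, 27494 and 21777 in WT on high-fat diet. The αERKO arrays read 12909, 16909 and 12319 with the normal and 19474, 22120 and 18151 with the high-fat diet. In each genotype all high-fat arrays were above all normal-diet arrays, a separation in either direction that 14.3% of genes showed in WT and 16.7% in αERKO. The diet difference was 0.53 ± 0.15 in WT (adjusted p = 0.328) and 0.51 ± 0.15 in αERKO (adjusted p = 0.194). Over both genotypes Slc2a2 was higher on high-fat diet by 0.52 ± 0.10, a ratio of 1.43 (95% interval of the difference from 0.30 to 0.75, adjusted p = 0.0327). The diet differences of the genotypes differed by -0.02, with a 95% interval from -0.47 to 0.43. Its genotype difference over both diets, -0.27 ± 0.10, did not pass (adjusted p = 0.176).

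The direction of the Slc2a2 diet difference held in all 26 alternatives, between 0.46 and 0.60, and the call was lost in 15 of them. Leaving out 1 array kept it for WT normal 2 (adjusted p = 0.0134), αERKO normal 2 (0.0181) and αERKO high-fat 3 (0.0461) and ended it for each of the other 9 arrays, with adjusted p between 0.0531 without WT high-fat 3 and 0.0964 without αERKO high-fat 2. Without the 4 arrays with acinar transcripts the difference was 0.54 ± 0.12 (adjusted p = 0.152), and without the 2 with muscle transcripts 0.46 ± 0.12 (adjusted p = 0.164), so the size was close to that over all arrays. The summed signal of kidney tubule markers, a tissue that also expresses Slc2a2 and G6pc, stayed between 415 and 998 on all 12 arrays. That of the pancreatic islet markers ran from 193 to 1078 and was highest on αERKO normal 1 (1078) and WT normal 2 (986). The part of either tissue in the Slc2a2 values was not tested.

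Gckr encodes a regulatory protein that restrains glucose phosphorylation in the hepatocyte. Gckr read 4255, 4103 and 4536 in WT on normal diet and 3879, 4677 and 4658 in WT on high-fat diet. Its αERKO signals were 4788, 4359 and 3978 without and 4907, 4699 and 3982 with the high-fat diet. Gckr had the narrowest range of the 9 brightest probe sets, its highest array being 1.27 times its lowest. The differences between 2 groups lay between 0.02 and 0.05 with an SE of 0.12, and the 95% interval for diet over both genotypes ran from -0.14 to 0.21.

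**Figure D3:**
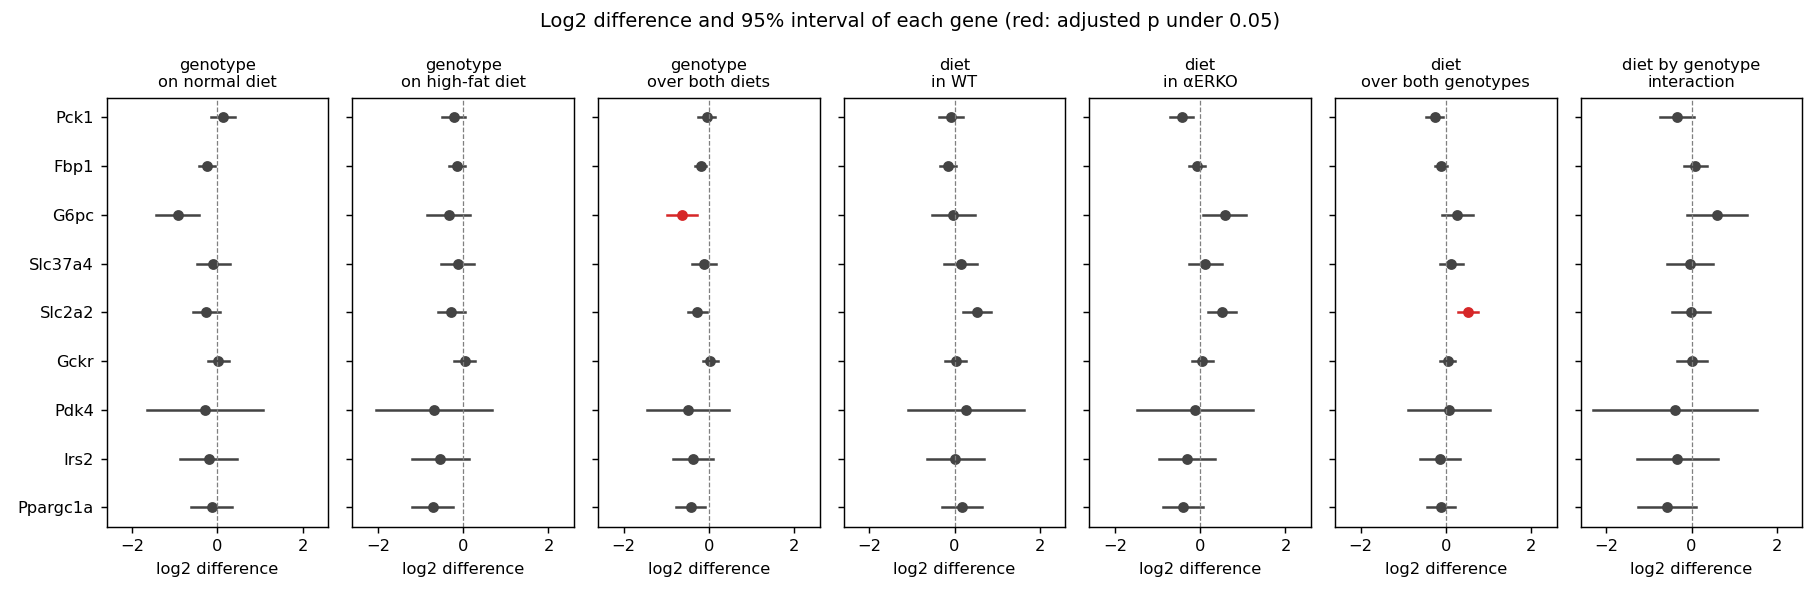
Log2 difference of each of the 9 genes (points) with its 95% interval (lines) in the 7 comparisons; the dashed line marks 0, and red marks an adjusted p under 0.05. G6pc for genotype over both diets and Slc2a2 for diet over both genotypes are red, and the widest intervals are those of Pdk4.

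Pdk4 encodes a pyruvate dehydrogenase kinase that keeps pyruvate from being oxidised, and is known to be induced by fasting. Pdk4 read 2546, 569 and 519 in WT on normal diet and 855, 632 and 2443 in WT on high-fat diet. In αERKO it read 1958, 484 and 431 on normal diet against 700, 662 and 687 on high-fat diet. A single array in each of 3 groups, namely WT normal 1, WT high-fat 3 and αERKO normal 1, was far above the others, and the remaining 9 arrays lay between 431 and 855. The SD was 1160 around a mean of 1211 in WT on normal diet and 19.5 around 683 in αERKO on high-fat diet, so the spread differed widely between groups. The genotype difference was -0.48 ± 0.45 over both diets (adjusted p = 0.595) and the diet difference 0.07 ± 0.45 over both genotypes (adjusted p = 0.97). Over 26 alternatives the latter ran from -0.22 to 0.44. Pdk4 is also expressed in muscle. Of the 3 high arrays, αERKO normal 1 had a mean log2 signal of the muscle markers of 10.70, whereas WT normal 1 and WT high-fat 3 were at 5.76 and 5.90. The part of muscle transcripts in the high Pdk4 signals was not tested.

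Irs2 encodes an adaptor of the insulin receptor and is itself known to be induced during fasting. Irs2 read 256, 164 and 342 in WT on normal diet and 209, 225 and 320 in WT on high-fat diet. The αERKO arrays read 354, 152 and 167 with the normal and 164, 164 and 168 with the high-fat diet. On high-fat diet all αERKO arrays were below all WT arrays, with a difference of -0.54 ± 0.31 (adjusted p = 0.449). The genotype difference over both diets was -0.37 ± 0.22 (adjusted p = 0.372).

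Pdk4 and Irs2 were both high on WT normal 1, WT high-fat 3 and αERKO normal 1. Over the 12 arrays their log2 signals had a Pearson r of 0.642 (permutation p = 0.0215) and a Spearman rho of 0.517 (permutation p = 0.0889). Without the 2 arrays farthest from the Pdk4 median r was 0.561, and without the 2 farthest from the Irs2 median 0.875. The first value keeps αERKO normal 1, which was high in both genes. The second leaves out WT normal 3, where Irs2 was high and Pdk4 low. Neither leaves out all the arrays high in both genes, so these values do not test the pattern. All 36 pairs of members were compared in this way, and 0 passed after adjustment (smallest adjusted permutation p 0.387 for Pearson and 0.649 for Spearman). Slc37a4 and Gckr had the highest r, 0.676 (permutation p = 0.0154), with rho 0.685 (permutation p = 0.018) and r of 0.687 and 0.693 without the 2 arrays farthest in either gene. The lowest r was -0.361, between Pck1 and Slc2a2 (permutation p = 0.248), with rho -0.364 (permutation p = 0.246). The arrays of the 4 groups were pooled for these values, and a common scaling factor per array is shared by both genes of a pair.

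**Figure D4:**
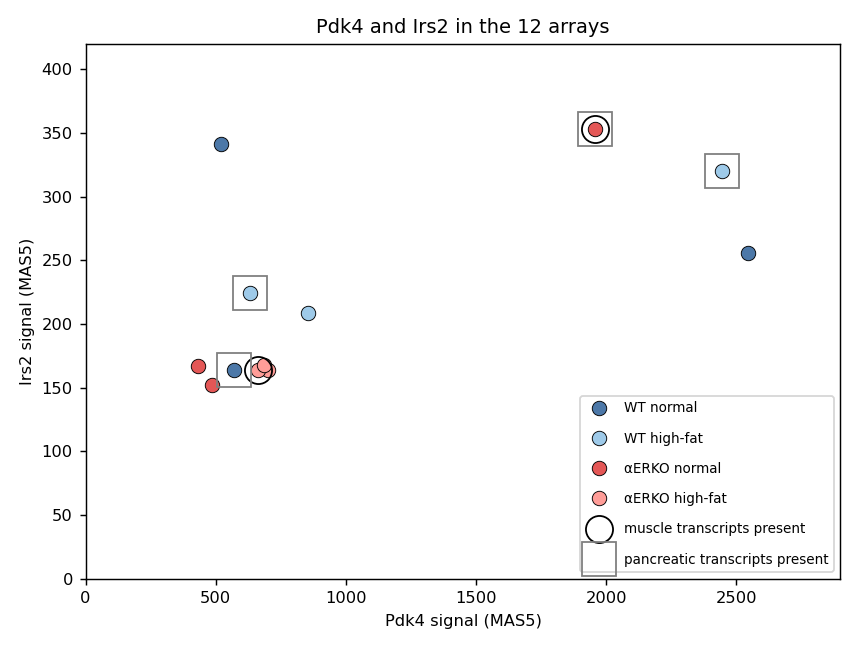
MAS5 signal of Pdk4 (x axis) against Irs2 (y axis), both from 0, 1 point per array, coloured by group; squares mark the 4 arrays with pancreatic acinar transcripts and circles the 2 with muscle transcripts. The 3 arrays with high Pdk4 (1958 to 2546) have Irs2 of 256 to 354, and WT normal 3 has high Irs2 (342) with low Pdk4 (519).

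Ppargc1a encodes PGC-1α, the coactivator that raises transcription of gluconeogenic and mitochondrial genes. Its 5 probe sets were lower in αERKO than in WT on high-fat diet without overlap, and none of them passed the test. The brightest, 1460336_at, read 534, 904 and 752 in WT on normal diet and 757, 733 and 952 in WT on high-fat diet. Its αERKO signals were 762, 711 and 504 without and 370, 538 and 578 with the high-fat diet. Its genotype difference was -0.71 ± 0.22 on high-fat diet (ratio 0.61, adjusted p = 0.127), against -0.13 ± 0.22 with the normal diet (adjusted p = 0.854). In the fit over all probe sets the other 4 differed between the genotypes on high-fat diet by -0.68 to -0.49, with adjusted p from 0.153 to 0.357. A separation in the lower direction was found for 12.1% of all probe sets in this comparison. The 5 probe sets are assigned to 1 gene and share the arrays, so they are not independent.

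The diet differences of all 5 Ppargc1a probe sets were above 0 in WT and below 0 in αERKO, and none of them passed the test. They were furthest apart for 1434099_at and 1434100_x_at. Probe set 1434099_at read 296, 352 and 329 in WT on normal diet and 436, 434 and 386 in WT on high-fat diet, and 535, 376 and 366 against 189, 247 and 353 in αERKO. The high-fat arrays of 1434099_at were all above the normal-diet arrays in WT and all below them in αERKO. Its diet difference was 0.35 ± 0.21 in WT and -0.69 ± 0.21 in αERKO, and these differed by -1.03 ± 0.30 (adjusted p = 0.79 over all probe sets). Probe set 1434100_x_at read 261, 351 and 327 against 419, 454 and 428 in WT and 482, 484 and 378 against 208, 265 and 415 in αERKO, where the diets overlapped, with an interaction of -1.08 ± 0.31 (adjusted p = 0.79). No gene, and so 0 of 9 members, passed the interaction test in this series by limma (0 of 12264, or 0% called, with 728 genes at an unadjusted p under 0.05). The interaction of the brightest Ppargc1a probe set was -0.58 with a 95% interval from -1.26 to 0.10.

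In the order of group means, neighbouring groups overlapped for all 9 genes. Slc2a2 ran from WT high-fat (24150 ± 2980) over αERKO high-fat (19920 ± 2020) and WT normal (16840 ± 3220) to αERKO normal (14050 ± 2500). G6pc ran from WT normal (12100 ± 1090) and WT high-fat (12080 ± 3030) over αERKO high-fat (9733 ± 3090) to αERKO normal (6499 ± 1750). Ppargc1a ran from WT high-fat (814 ± 121) over WT normal (730 ± 186) and αERKO normal (658.8 ± 137) to αERKO high-fat (495.5 ± 111). The end of the order was thus αERKO normal for Slc2a2 and G6pc and αERKO high-fat for Ppargc1a, as it was for Pck1 (24700 ± 4290), Fbp1 (50520 ± 3440), Pdk4 and Irs2 (165.3 ± 2.26).

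As a set, the members had a median difference of -0.27 for genotype over both diets, where the median of all genes was -0.05. Below 0 were 8 of 9 differences, 6 of 9 after median centring and 9 of 9 after quantile normalization. Median centring moved the median of all genes to 0.08. Below the median of all genes were 8 of 9 members before and after median centring, and 9 of 9 after quantile normalization. For genotype on normal diet 7 of 9 were below 0 (5 of 9 after median centring) and on high-fat diet 8 of 9. On normal diet 7 of 9 were below the median of all genes before and after median centring. For diet over both genotypes the median was 0.04 against 0.00 for all genes, with 5 of 9 above 0. Without overlap between the groups were 2 of 9 members for genotype on normal diet (Fbp1 and G6pc, where 15.8% of genes did not overlap), 2 of 9 for genotype on high-fat diet (Irs2 and Ppargc1a, against 22.5%), 1 of 9 for diet in WT (Slc2a2, against 14.3%) and 2 of 9 for diet in αERKO (Pck1 and Slc2a2, against 16.7%). These counts were near the shares over all genes. For the comparisons over both diets or both genotypes 0 of 9 were without overlap, against 2.93% and 0.913% of genes.

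The other genes of the pathways were read from 6 lists with 127 genes, of which 115 were tested. For genotype over both diets 4 of 115 passed as higher and 3 as lower, against 2.06% and 2.26% of all genes. For diet over both genotypes 3 passed as higher and 0 as lower (0.628% and 0.318%). For diet in αERKO 1 passed each way (0.334% and 0.147%). By genotype 1 passed as higher on normal diet (0.587%) and 1 as lower on high-fat diet (0.881%). Counts this small are no result about the lists. Of the genes that feed carbon into gluconeogenesis, 16 of 19 were tested. Mdh1, the cytosolic malate dehydrogenase, rose in αERKO: it read 34480, 25682 and 26630 in WT on normal diet and 41332, 43189 and 40382 in αERKO, and it was 0.38 ± 0.08 higher over both diets (adjusted p = 0.0112). That value is from its brightest probe set; as the mean of all its probe sets the difference was 0.04 (adjusted p = 0.831), and without the arrays with acinar transcripts 0.27 (adjusted p = 0.273), so the probe sets of Mdh1 disagree. Gpt2, a mitochondrial alanine aminotransferase, was 0.34 ± 0.08 higher (adjusted p = 0.0318), and Gpd2, the mitochondrial glycerol-3-phosphate dehydrogenase, differed by -0.66 ± 0.12 (ratio 0.634, adjusted p = 0.00439; 0.0773 as the mean of its probe sets). The Gpt2 call was lost without the acinar arrays (0.27, adjusted p = 0.29) and without any 1 of 7 arrays, at an adjusted p of up to 0.0795. For the other comparisons of this list, 1 of 16 genes passed for genotype on normal diet, again Mdh1 (0.54, adjusted p = 0.0254), and 0 of 16 in the remaining 5. This Mdh1 call was lost in 9 of 15 alternatives, with 0.28 (adjusted p = 0.354) as the mean of its probe sets and 0.46 (adjusted p = 0.233) without the arrays with acinar transcripts, and on leaving out any of 5 arrays (WT normal 2 or 3, or any αERKO normal array; up to 0.111).

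Of the glycolysis and pyruvate oxidation genes, 18 of 24 were tested. Pklr, the liver pyruvate kinase and a known target of the glucose-responsive factor ChREBP, rose on high-fat diet. It read 580, 728 and 712 in WT on normal diet and 853, 960 and 713 in WT on high-fat diet, and 331, 492 and 504 against 998, 1234 and 780 in αERKO. The groups did not overlap in αERKO and overlapped in WT. The diet difference was 1.15 ± 0.20 in αERKO (ratio 2.23, adjusted p = 0.0225) and 0.73 ± 0.14 over both genotypes (adjusted p = 0.027), and that in WT was 0.31 ± 0.20 (adjusted p = 0.724); the interaction was 0.84 ± 0.28 (adjusted p = 0.786). The αERKO call was lost without αERKO normal 1 (0.96, adjusted p = 0.0759), αERKO high-fat 1 (1.15, 0.1) or αERKO high-fat 2 (adjusted p = 0.132), and without the arrays with muscle transcripts (0.81, 0.293). The call over both genotypes was lost without any 1 of 6 arrays, at an adjusted p of up to 0.0779, and in 5 of 14 other alternatives (up to 0.179). Pgam1, a phosphoglycerate mutase, was 0.27 ± 0.07 higher in αERKO over both diets (adjusted p = 0.0325). The Pgam1 call was lost without any 1 of 9 arrays (up to 0.0859) and in 6 of 14 other alternatives (up to 0.322). No other gene of the list passed.

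Of the glycogen genes, 16 of 17 were tested. Ugp2, which makes UDP-glucose, and Gbe1, the branching enzyme, rose on high-fat diet over both genotypes, by 0.42 ± 0.08 (adjusted p = 0.0281) and 0.47 ± 0.10 (adjusted p = 0.048). Phkb, a regulatory subunit of phosphorylase kinase, was 0.50 ± 0.11 higher in αERKO over both diets (adjusted p = 0.016). The Ugp2 call was lost without any 1 of 7 arrays (up to 0.082) and the Gbe1 call without any 1 of 9 (up to 0.132). Of the 14 other alternatives, 4 ended the Ugp2 call (up to 0.272) and 7 the Gbe1 call (up to 0.292). Phkb passed without each array in turn and was lost in 3 of the 14 others, among them without the arrays with acinar transcripts (0.40, adjusted p = 0.259). The median diet difference of the list over both genotypes was 0.19, with 12 of 16 above 0, and 12 of 16 after median centring and 11 of 16 after quantile normalization.

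Of the glucose and fructose sensing genes, all 16 were tested, and Txnip, a glucose-induced arrestin that restrains glucose uptake, was lower in αERKO. It read 3535, 3424 and 3701 in WT on normal diet and 3522, 3440 and 3666 in WT on high-fat diet, and 2981, 2641 and 2715 against 2138, 1808 and 1938 in αERKO. All 6 αERKO arrays were below all 6 WT arrays. The Txnip difference over both diets was -0.60 ± 0.07 (ratio 0.659, adjusted p = 0.000137), a call kept in all 26 alternatives. On high-fat diet the genotype difference was -0.85 ± 0.10 (ratio 0.555, adjusted p = 0.000291), lost only without the arrays with acinar transcripts (-0.84, adjusted p = 0.059). The diet difference in αERKO was -0.50 ± 0.10 (adjusted p = 0.0466). It did not pass without any 1 of 11 arrays (up to 0.241, without αERKO high-fat 2) or in 10 of 15 other alternatives (up to 0.535). The Txnip interaction was -0.50 ± 0.14 (adjusted p = 0.611).

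Of the glucagon and fasting regulators, 31 of 32 were tested. Ppara, the fatty acid receptor that drives the fasting programme of the liver, was lower in αERKO, with a difference of -0.35 ± 0.09 over both diets (ratio 0.782, adjusted p = 0.0371). The call was lost without any 1 of 8 arrays (up to 0.1) and in 7 of 14 other alternatives (up to 0.229). Among these were the fits without the arrays with acinar (-0.35, 0.183) or muscle transcripts (-0.26, 0.15). No other gene of the list passed. Of the insulin signalling genes, 18 of 19 were tested and 0 passed in any of the 7 comparisons by limma. Over the 4 comparisons between 2 groups and the interaction, the genes with the smallest p were Foxo1, a transcription factor that insulin keeps out of the nucleus, and its relative Foxo3. The genotype difference of Foxo1 was 0.58 ± 0.17 on normal diet (adjusted p = 0.145), against -0.08 ± 0.17 with the high-fat diet (adjusted p = 0.874). That of Foxo3 was -0.59 ± 0.20 with the high-fat diet (adjusted p = 0.168) and -0.46 ± 0.14 over both diets (adjusted p = 0.0841). The smallest adjusted p of the list over both diets was 0.0748, for Irs1, which encodes another insulin receptor adaptor and is named here after its value was seen. On high-fat diet 16 of 18 insulin signalling genes were lower in αERKO by value, with a median of -0.19, and 10 of 18 after median centring and 14 of 18 after quantile normalization. The median of all genes was -0.03, and 0.07 after median centring. Below that median were 15 of 18 before and after median centring.

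**Figure D5:**
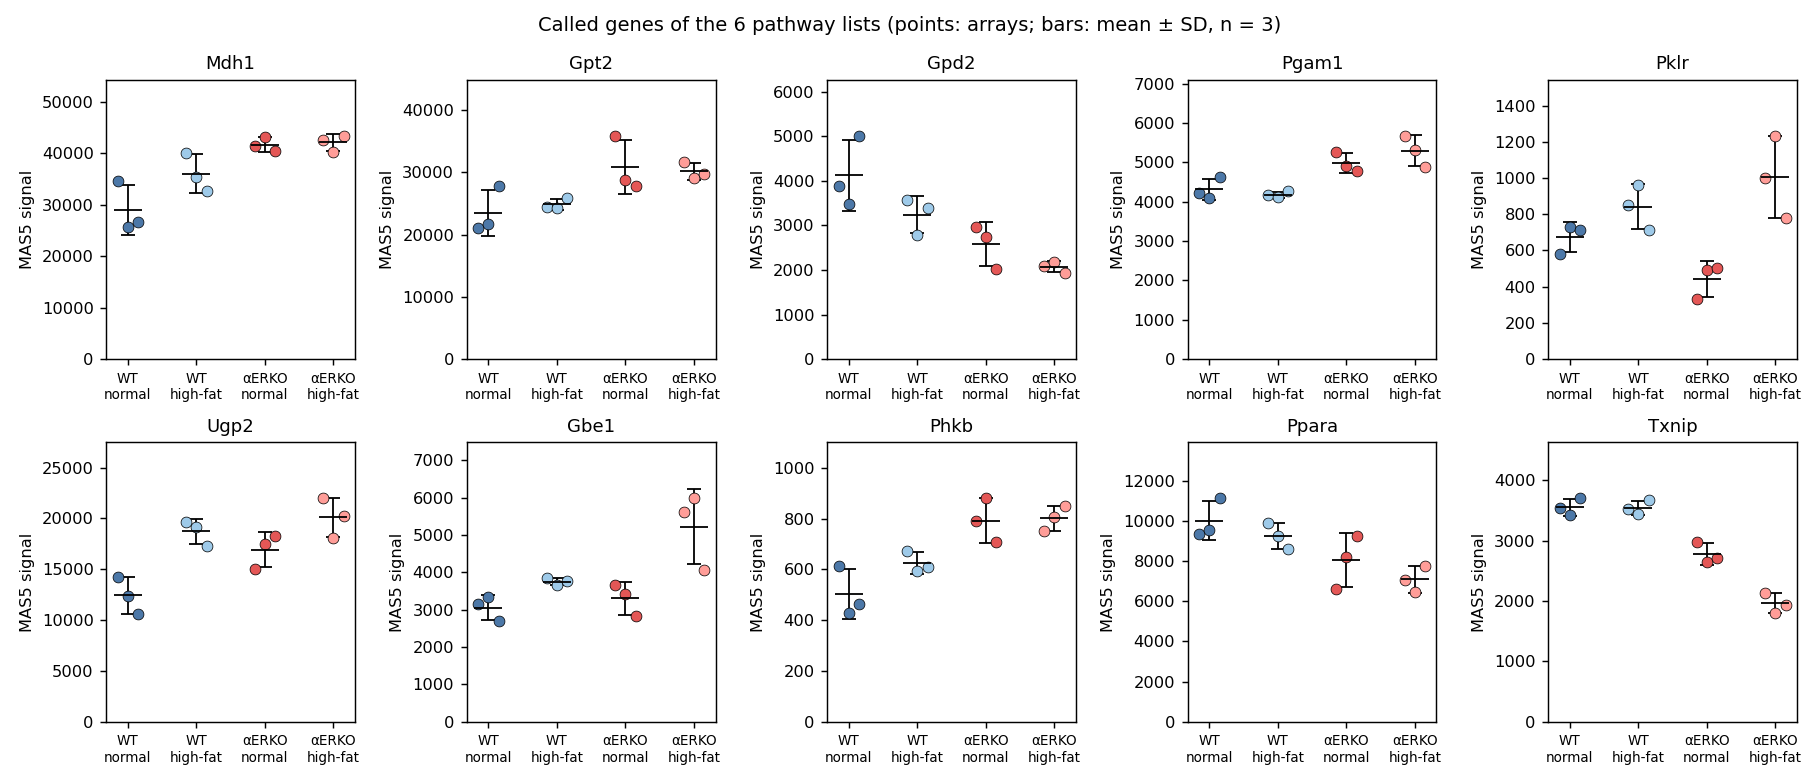
MAS5 signal (y axes from 0, a scale for each gene) of the 10 genes of the 6 pathway lists that passed the test in any comparison, in the 4 groups of 3 arrays; points are arrays, bars the mean ± SD. Txnip is lower on all 6 αERKO arrays (1808 to 2981) than on all 6 WT arrays (3424 to 3701), and Pklr is highest in αERKO on high-fat diet.

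The genes whose log2 signals ran most like each member's over the 12 arrays were taken as the 3 highest Pearson r among 12263 genes, as a description without a test. Slc2a2 was most like Fbxo3 (0.946), Limd2 (0.919) and Zbp1 (0.899). G6pc was most like Tubb6 (0.953), Prrg1 (0.904) and Ccnq (0.89). Fbp1 was most like Hp (0.929), Apoh (0.911), both secreted by hepatocytes, and Rpsa (0.91), and Irs2 most like Eppk1 (0.93), Cish (0.926) and Sf3b1 (0.899). Pdk4 was most like Rab30 (0.893), Klf6 (0.802) and Zc3h13 (0.792), Pck1 like Man2a1 (0.89), Aimp1 (0.888) and Rpp40 (0.864), and Ppargc1a like Rgl1 (0.894), Larp1b (0.892) and Klrd1 (0.884). Gckr was most like Bzw1 (0.91), Limch1 (0.896) and Akirin1 (0.875), and Slc37a4 like 1300017J02Rik (0.867), Erap1 (0.853) and Taf11 (0.844). No member was among another member's 3 closest genes. The values share the arrays, their scaling and the 4 groups.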

How the data were processed

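Total RNA from mouse liver was isolated with Trizol, cleaned on RNeasy columns with DNase, amplified with the 3' IVT Express kit and hybridised to Affymetrix arrays, per the labels' protocols. The authors deposited linear signal intensities for 45101 probe sets, made with MAS5 in Affymetrix Expression Console per the submitters' processing notes, whose version no source used here gives. The 2% trimmed mean was 499.8 on all 12 arrays, and the median signal ran from 75.6 to 114. Of the probe sets, 34958 have 1 gene symbol in the platform annotation, 932 several and 9211 are not listed there. The brightest probe set stood for a gene, which was tested if above the array median on at least 3 arrays.

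Values were log2(signal + 16), which understates changes of low signals. They were fitted with limma 3.58.1 in R 4.3.3: 1 model with a mean for each of the 4 groups, 8 residual degrees of freedom, a variance prior with an intensity trend, and Benjamini-Hochberg adjustment over 12264 genes (25412 probe sets in the probe set fit). Comparisons over both diets or genotypes average the differences between 2 groups. Comparisons that use the same groups share those arrays and are not independent. The limma fit was tested on simulated data. Alternatives changed the pseudocount, filter, scaling, probe set summary, variance model, weights, replicate block and arrays used. Correlations between members used 100000 permutations, 2-sided (numpy 2.4.6, with ranks from scipy 1.17.1). Promoters are from RefSeq, GRCm38.p6. Arrays with a marker score more than 2 log2 units above the median of the 12 arrays were said to hold transcripts of that tissue. Named genes are all members, the pathway genes that passed in any comparison (or, of a list without one, the 2 with the smallest p over the 4 comparisons between 2 groups and the interaction), the 3 most alike genes and Esr1. Members, lists and tests were chosen with earlier results of these data known. Some list genes are not reported here.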

Additional observations from a re-analysis of the deposited data

Results flagged for a closer look

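The Ppargc1a probe sets 1434099_at and 1434100_x_at had differences of opposite sign without overlap between arrays, and the difference between them did not pass the test. For 1434099_at this held for both the diet shift in each genotype and the genotype shift on each diet, with an interaction of -1.03 on the log2 scale (adjusted p = 0.79 by limma over all probe sets). For 1434100_x_at it held for the genotype shift, with an interaction of -1.08 (adjusted p = 0.79 by limma). Opposite shifts of this kind were found for 163 of 25412 probe sets, or 0.641%. No such opposite shift without overlap was found for the other 3 Ppargc1a probe sets.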

How the results depend on the processing

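No direction of a result named here as passing the test reversed under any alternative. The count of members passing for genotype over both diets, 1, became 0 without the filter, after median centring, without the intensity trend, in the probe set fit (counting brightest probe sets), without the arrays with acinar or with muscle transcripts and with both scores as covariates, and 2 with array quality weights (Fbp1 and G6pc); leaving out 1 array gave 0 to 1. For diet over both genotypes, 1 became 0 without the filter, after median centring, without the trend, without the acinar or the muscle arrays and with the score covariates, and leaving out 1 array gave 0 to 1. With the mean of all probe sets of a gene, G6pc did not pass over both diets. The genotype difference of Pck1 was then -0.65 on high-fat diet and -0.41 over both diets. Both values were carried by 1455209_at, which passed the filter only through WT arrays, so they are a description and Pck1 is not counted as passing. Of 50 member values with an unadjusted p of 0.05 or more, 30 changed sign in some alternative. The cause of these changes was not tested.

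Replicate numbers are shared across groups. Samples of 1 number deviated together in 4 of 18 cases at a correlation above 0.1 (median -0.029), and pairs of different numbers in 8 of 36. The closest sample of another group had the same number in 14 of 36 cases, and 0 samples were closest to their own number in every other group. Correlations over all genes cannot exclude a pairing that acts on single genes. The 3 Slc2a2 signals had the same order of replicate numbers in each of the 4 groups. Whether samples of 1 number were handled together was not tested. With the replicate block, 1 member, Slc2a2, passed for diet in WT and 1, again Slc2a2, for diet in αERKO; over both diets Slc2a2 (-0.27, adjusted p = 0.0189) passed in place of G6pc (adjusted p = 0.0709).

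Counts over all genes moved by more than 1.5 times: 9 genes for diet in WT ranged from 0 to 21, 59 for diet in αERKO from 12 to 187, 150 for genotype on normal diet from 71 to 172, 243 on high-fat diet from 59 to 944, 530 over both diets from 182 to 844, 116 for diet over both genotypes from 26 to 192, and 0 for the interaction reached 2. Median centring moved the median of all genes by 0.14, 0.10 and 0.12 for genotype on normal diet, on high-fat diet and over both. With it the share of calls that were higher went from 48.0% to 59.6% for genotype on normal diet, 47.7% to 73.2% over both diets, 66.4% to 80.8% for diet over both genotypes and 22.2% to 0% for diet in WT. With 3 arrays a group, differences of several SE could also fail the test, such as -0.93 ± 0.23 for G6pc on normal diet (adjusted p = 0.0855 by limma). A comparison that did not pass therefore does not show that a difference is absent.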
